A study of Danio rerio with 9 samples.

Results

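The genes of oxidative phosphorylation were taken by name from the deposited table of zebrafish embryo RNA-seq counts. Rows were kept whose Ensembl gene name begins with nduf, sdh, uqcr, cox4 to cox8 or atp5, or is a mitochondrial nd, co, cyb or atp gene. The rule found 121 genes of the 32520 in the table, 108 encoded in the nucleus and 13 in the mitochondrial genome. Complex I holds 46 nuclear and 7 mitochondrial genes, complex II 9 nuclear genes, complex III 8 and 1, complex IV 25 and 3, and complex V 20 and 2. Assembly factors and inhibitors whose names fit the rule are counted with their complex, and the ndufa4 genes with complex IV.

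Whole embryos of 3 genotypes were compared with 3 libraries each: wild type, a kdm4aa knockout and a kdm4ab knockout. The products of both targeted genes are KDM4 proteins, enzymes that take methyl groups off histone lysines. The study asked what lies downstream of kdm4aa in knockout embryos that were delayed and had more dying cells. The sources used here do not give the stage of the embryos, their strain or the alleles of the knockouts, nor whether replicates came from separate clutches. A p-value below therefore sets a difference only against the spread of these libraries, and that spread may be technical.

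Oxidative phosphorylation passes electrons from NADH through complex I, and from succinate through complex II, to ubiquinone, then through complex III and cytochrome c to oxygen at complex IV. Complexes I, III and IV pump protons across the inner mitochondrial membrane, and complex V, the ATP synthase, uses their return to make ATP. Complex II is encoded wholly in the nucleus, whereas the other complexes combine subunits from both genomes, so their supply needs transcripts from both. A zebrafish embryo inherits its mitochondria and much of its early RNA from the egg. The functions given below are those of the mammalian proteins.

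Library totals ran from 27894551 to 46156237 counts. The kdm4ab knockout replicate 2 library stood apart: genes with a count numbered 14247 in it and 22025 to 23019 in each of the other libraries. With it, the coefficient of biological variation over all genes was 47.5%, and without it 13.1%, so each comparison below is given for all 9 libraries and for the 8 without it. Levels are in CPM, counts relative to a library's total after TMM scaling (trimmed mean of M values), not corrected for gene length. The kdm4ab transcript stood at 127, 168 and 121 CPM in wild type, at 172, 148 and 154 CPM in the kdm4aa knockout, and at 2.38, 0 and 2.22 CPM in the kdm4ab knockout. By contrast kdm4aa stood at 18.1, 20.6 and 18.5 CPM in wild type and at 17.9, 14.7 and 17.2 CPM in its own knockout, a log2 difference of -0.20 (SE 1.17, adjusted p = 0.961), and -0.19 (adjusted p = 0.204) in 8 libraries. Its level therefore does not check the kdm4aa labels. In the kdm4ab knockout kdm4aa stood at 14.0, 0 and 15.8 CPM. Replicate 2 thus had 0 for both genes, and its 0 for kdm4ab does not by itself check its label. Of the markers of cardiac muscle and erythroid cells, MYL7, cmlc1, nppa and the globin hbae1.1 were at 0 in every library but for 0.0487 CPM of MYL7 in kdm4ab knockout replicate 3. Other genes of these lists had counts. The cardiac list summed to 0 to 1.65 CPM, the erythroid list to 0.956 to 4.08 and the skeletal muscle list to 0.672 to 10.4. Embryonic genes were present, among them SOX3 at 69.1 to 143 CPM.

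Transcripts of the mitochondrial genome took 1.88%, 2.08% and 2.08% of all counts in wild type, 2.77%, 2.44% and 2.27% in the kdm4aa knockout, and 2.13%, 2.99% and 1.91% in the kdm4ab knockout. The 108 nuclear genes together took 0.248%, 0.269% and 0.263% in wild type, 0.351%, 0.381% and 0.337% in the kdm4aa knockout, and 0.307%, 0.896% and 0.286% in the kdm4ab knockout. Every kdm4aa knockout library lay above every wild type library in both sums. In the kdm4ab knockout the nuclear sum of replicates 1 and 3 lay just above wild type and that of replicate 2 far above all others, while the mitochondrial sum overlapped wild type. Without ATP5F1A and ATP5F1B, a pair of ATP synthase genes described below, the nuclear sum of replicates 1 and 3 was 0.226% and 0.207%. That overlapped the 0.201%, 0.216% and 0.212% of wild type. The mitochondrial sum was 7.56, 7.74 and 7.91 times the nuclear sum in wild type and 7.87, 6.42 and 6.73 times in the kdm4aa knockout. It was 6.96, 3.34 and 6.68 times in the kdm4ab knockout, below wild type in all 3 libraries. These ratios include ATP5F1A and ATP5F1B, which took 0.0802% and 0.0794% of counts in kdm4ab knockout replicates 1 and 3. In wild type the pair took 0.0474% to 0.0528%. Ratios without the pair were not computed, so a lower ratio need not hold for the other nuclear genes. The libraries were made from RNA caught on poly-T beads, and what this did to the mitochondrial shares was not tested. In RNA from whole embryos, fewer cells of a type and less RNA per cell cannot be told apart.

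**Figure D1:**
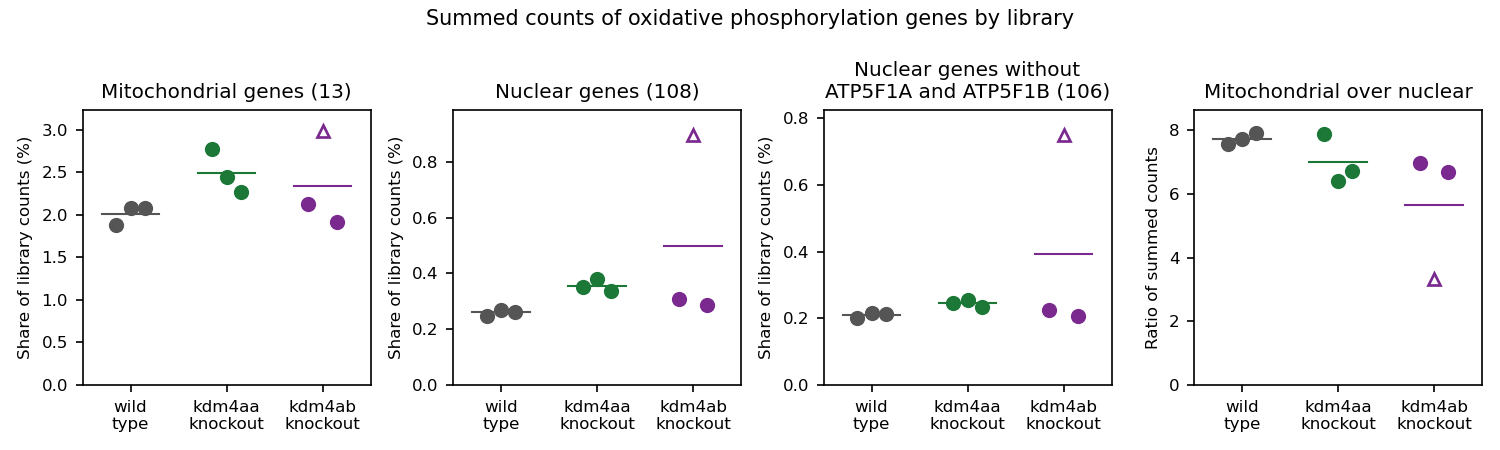
Share of each library's counts (percent) taken by the mitochondrial genes, the nuclear genes and the nuclear genes without ATP5F1A and ATP5F1B, and the ratio of the mitochondrial to the nuclear sum, by genotype. Points are libraries, bars are means of 3, and the open triangle is kdm4ab knockout replicate 2, which took 0.896% in the nuclear sum where the other kdm4ab knockout libraries took 0.307% and 0.286%.

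A pair of genes carried much of the nuclear difference in the kdm4aa knockout. ATP5F1A and ATP5F1B, which encode the alpha and beta subunits of the catalytic head of ATP synthase, together took 0.0474% to 0.0528% of counts in wild type and 0.102% to 0.125% in the kdm4aa knockout. The other 106 nuclear genes took 0.201% to 0.216% in wild type and 0.235% to 0.255% there, a smaller difference but still without overlap. By complex, the nuclear genes of complex V summed to 948.5, 1020 and 1002 CPM in the wild type libraries and to 1776, 1942 and 1701 CPM in those of the kdm4aa knockout. Complex IV summed to 383.5, 384.4 and 398.9 CPM against 558.3, 515.7 and 513.0 CPM. Complex I summed to 674.9, 704.8 and 672.9 CPM against 804.5, 827.8 and 783.2 CPM, and complex II to 216.9, 232.5 and 218.0 CPM against 266.4, 259.2 and 252.8 CPM. In those 4 complexes the groups did not overlap. Complex III was the exception, with 342.7, 340.4 and 347.0 CPM in wild type against 342.3, 368.0 and 350.4 CPM, which overlapped.

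Of the 121 genes, 108 passed the filter on low counts in 9 libraries, 95 nuclear and all 13 mitochondrial, and 110 passed in 8 libraries. The 11 nuclear genes that passed in neither were NDUFB4, NDUFS1, UQCRB, cox4i1l, cox6b1, cox7a1, NDUFA4L2, ndufa4l2b, COX6A1 (ENSDARG00000054588) and the COX5B genes ENSDARG00000068738 and ENSDARG00000113254. Of these, NDUFS1, cox6b1, NDUFA4L2, ndufa4l2b and COX5B (ENSDARG00000068738) had no count in any library. NDUFS1 and UQCRB encode subunits that complexes I and III need in mammals, and their values here are given only as the table lists them. Whether missing or low counts of such genes come from the embryos or from the annotation or counting was not tested. For UQCRB the level was at most 0.332 CPM, except for 1.75 CPM in kdm4ab knockout replicate 2. The symbols COX5B, COX7A2, SDHD and COX6A1 (also written cox6a1) are each carried by more than 1 gene, 9 in all, and are given with their identifiers.

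Between the kdm4aa knockout and wild type, oxidative phosphorylation genes tended to be higher in the knockout. In 9 libraries 2 genes rose and 0 fell at an adjusted p under 0.05, that is 1.85% of the 108 tested, while over all genes 4.33% rose and 4.55% fell. At an unadjusted p under 0.05, 11 were higher and 0 lower, 10.2% and 0%, against 10.7% and 11.0% over all genes, so that the count higher was near the background. DESeq2 called 7 higher and 0 lower, with 7.95% and 9.62% of all genes, and limma-voom with sample quality weights 46 and 7, with 26.0% and 25.9% of all genes. The weight of kdm4ab knockout replicate 2 was 0.0204, against 1.17 to 3.11 for the other libraries, so limma-voom nearly left it out. In 8 libraries 42 of 110 rose and 5 fell, 38.2% and 4.55%, where over all genes 23.3% rose and 23.5% fell. The kdm4aa and wild type libraries are the same in both fits, and the estimate of spread they are judged by is not. In 56 of the 108 genes all kdm4aa libraries lay above all wild type libraries and in 8 all lay below, 51.9% and 7.41%, against 28.7% and 28.9% over all genes (27.8% and 28.4% of the genes tested in 8 libraries). The median log2 difference was 0.23 over the nuclear genes and 0.29 over the mitochondrial genes, against -0.00 over all genes tested.

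**Figure D2:**
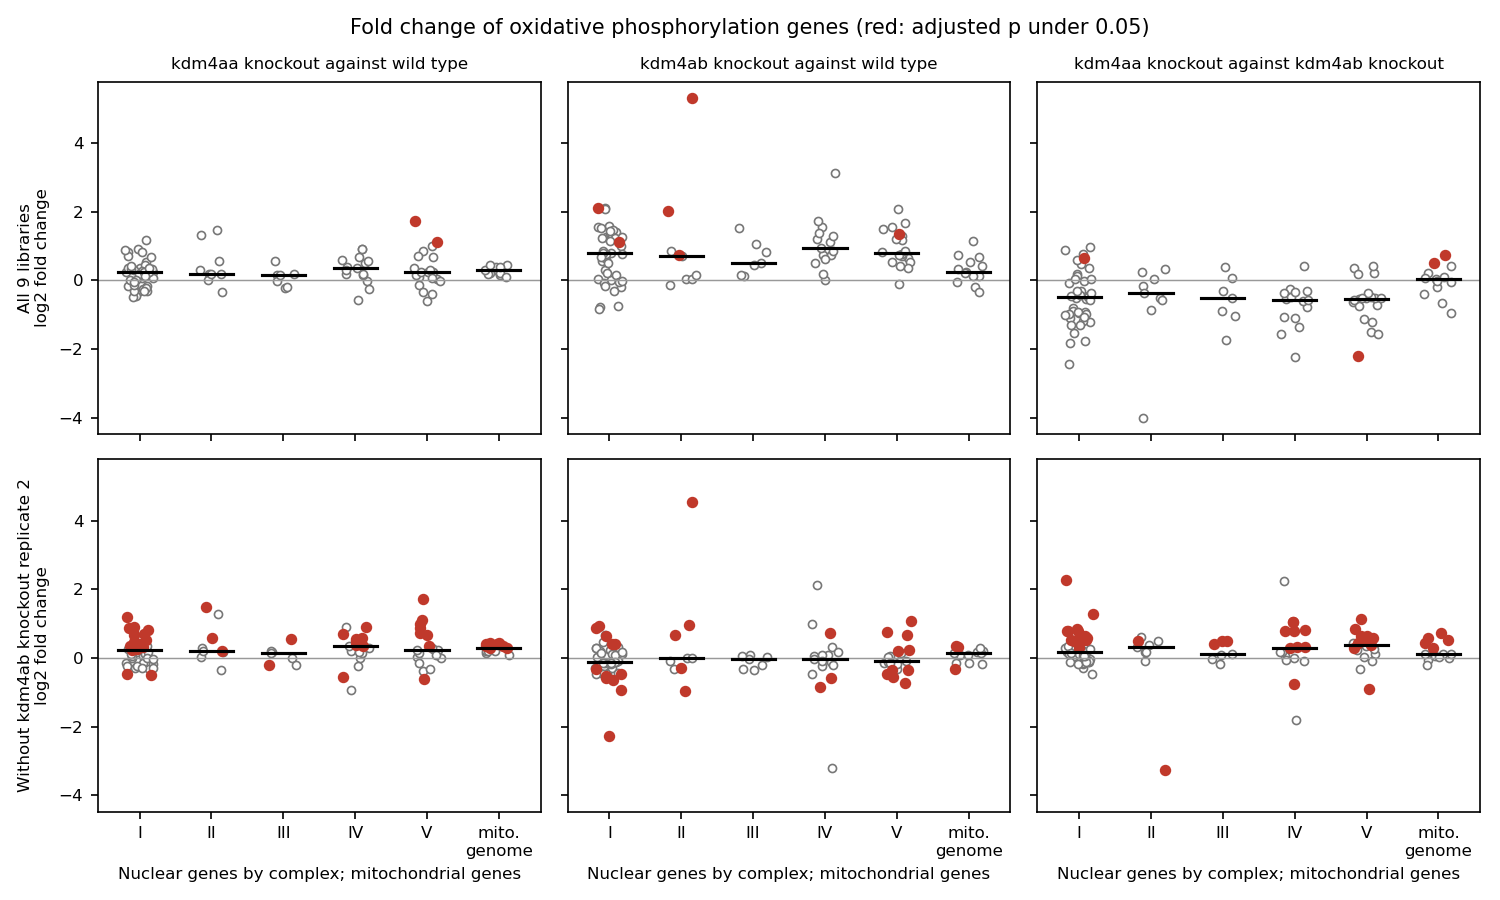
Log2 fold change of each tested gene (vertical axis) by complex for nuclear genes, with mitochondrial genes at the right, in the 3 comparisons. The upper row uses 9 libraries and the lower row 8, red points have an adjusted p under 0.05, and bars are medians. Without kdm4ab knockout replicate 2 the median of complex IV in the kdm4ab knockout against wild type goes from 0.94 to -0.04.

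In the catalytic head of ATP synthase, ATP5F1B (ENSDARG00000070083), the beta subunit that forms ATP, stood at 155, 164 and 170 CPM in wild type, at 511, 589 and 511 CPM in the kdm4aa knockout, and 337, 551 and 355 CPM in the kdm4ab knockout. The 3 groups were apart, except that kdm4ab knockout replicate 2 lay among the kdm4aa libraries. The log2 difference between the kdm4aa knockout and wild type was 1.72 (SE 0.199, adjusted p = 0.00172 in 9 libraries and 1.80e-11 in 8). ATP5F1A (ENSDARG00000010149), the alpha subunit, stood at 334, 362 and 339 CPM in wild type and at 619, 699 and 580 CPM in that knockout. Its log2 difference of 0.87 (SE 0.267) missed the threshold in 9 libraries (adjusted p = 0.0868) and passed it in 8 (0.88, adjusted p = 9.02e-08). ATP5F1C (ENSDARG00000045514), the gamma subunit of the rotating shaft, stood at 35.1, 38.1 and 36.6 CPM against 57.0, 64.7 and 58.2 CPM, a difference of 0.72 that passed in 8 libraries only (adjusted p = 5.69e-06, against 0.333 in 9). These 3 genes had no overlap between wild type and the kdm4aa knockout. The small head subunits ATP5F1D and atp5f1e differed by 0.10 and 0.23 in 8 libraries, with adjusted p-values of 0.655 and 0.251.

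Elsewhere in complex V the peripheral stalk, which holds the head still, was uneven. ATP5PF (ENSDARG00000014313), coupling factor 6 of the stalk, stood at 5.32, 3.98 and 4.28 CPM in wild type and at 10.2, 10.8 and 8.41 CPM in the kdm4aa libraries. It rose by 1.12 (SE 0.264, adjusted p = 0.0357 in 9 libraries and 0.000112 in 8). Its neighbour in the stalk, ATP5PD (ENSDARG00000098355), subunit d, stood at 3.64, 4.45 and 6.03 CPM against 2.95 to 3.33 CPM, and fell by 0.61 in 8 libraries (adjusted p = 0.0323, against 0.507 in 9). For ATP5PO, the stalk's OSCP subunit, the difference was -0.01. In the membrane part, the c ring gene atp5mc1 (ENSDARG00000056008) stood at 127, 129 and 129 CPM against 204, 202 and 207 CPM, and the small subunit gene atp5mj (ENSDARG00000092873) at 21.6, 24.4 and 26.6 CPM against 48.5, 46.8 and 48.4 CPM. Both rose in 8 libraries, by 0.67 (adjusted p = 1.09e-06) and 0.99 (adjusted p = 5.80e-07). In 9 libraries, with the same folds, their adjusted p-values were 0.543 and 0.498. For atp5mea (ENSDARG00000078113), subunit e, the levels were 16.1, 21.0 and 21.3 CPM against 15.3, 15.8 and 15.4 CPM, lower without overlap but short of the threshold in 8 libraries (-0.33, adjusted p = 0.0568).

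The counts by complex and list in 8 libraries that follow stand beside 23.3% of all genes called higher and 23.5% called lower, and those in 9 libraries beside 4.33% and 4.55%. Counts at an unadjusted p under 0.05 in 9 libraries stand beside 10.7% of all genes higher and 11.0% lower. For complex I that share was 6.82% higher. In complex V, 7 of 20 nuclear genes rose and 1 fell in 8 libraries, and 2 and 0 in 9. At an unadjusted p under 0.05 in 9 libraries, 3 genes of complex V were higher and 0 lower. The share of complex V that rose in 8 libraries, 35.0%, was not above the 36.4% of complex I or the 41.2% of complex IV. In complex I, 16 of 44 tested nuclear genes rose and 2 fell in 8 libraries, 36.4% and 4.55%, and none in 9. In 9 libraries 3 were higher at an unadjusted p under 0.05 and 0 lower, and the median log2 difference was 0.25. Of the 6 core subunits that carry the redox centres 2 rose, of the 30 accessory subunits 9 rose, and of the 8 assembly factors 5 rose and 2 fell. The shares of core and accessory subunits that rose, 33.3% and 30.0%, were closer to that of all genes than the 62.5% of the assembly factors. NDUFV1 (ENSDARG00000036438), the flavoprotein that takes electrons from NADH, stood at 132, 133 and 121 CPM in wild type, against 161, 159 and 163 CPM, a rise of 0.33 in 8 libraries (adjusted p = 0.00223, against 0.123 in 9). Among the accessory subunits NDUFS5 (ENSDARG00000006290) had the highest value of the complex: it stood at 4.58, 3.98 and 5.21 CPM against 9.56, 10.2 and 11.5 CPM, 1.19 in 8 libraries (adjusted p = 2.83e-05, against 0.296 in 9). The assembly factors moved both ways. NDUFAF4 (ENSDARG00000077859), an early partner in assembly, went from 8.15 to 8.59 CPM to 14.1 to 17.4 CPM (0.91 in 8 libraries, adjusted p = 5.99e-05). NDUFAF2 (ENSDARG00000069286), which acts late in assembly, stood at 19.0, 24.4 and 22.7 CPM against 15.5, 17.3 and 14.9 CPM, and fell by 0.47 in 8 libraries (adjusted p = 0.00469, against 0.322 in 9). NDUFAF8 (ENSDARG00000096749), a partner of NDUFAF5, fell by 0.48 in 8 libraries (adjusted p = 0.0399), from 4.86 to 5.50 CPM in wild type to 3.54 to 3.77 CPM.

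In complex II, which oxidises succinate, 3 of 9 genes, 33.3%, rose in 8 libraries, namely sdhaf1, SDHAF2 and SDHB, and none fell. In 9 libraries none was called, and 2 had higher and 0 lower values at an unadjusted p under 0.05. The assembly factor gene sdhaf1 (ENSDARG00000092478), whose product helps place iron-sulphur clusters in SDHB, stood at 2.42, 1.89 and 2.13 CPM in wild type, at 7.01, 5.18 and 5.70 CPM in the kdm4aa knockout, and at 3.93, 18.1 and 4.43 CPM in the kdm4ab knockout. Both knockouts lay above wild type in every library. The kdm4aa difference was 1.48 in 8 libraries (adjusted p = 1.52e-05) and 1.47 (SE 0.573, adjusted p = 0.172) in 9. SDHAF2 (ENSDARG00000062971), which attaches the flavin to SDHA, stood at 10.5, 11.4 and 10.6 CPM in wild type, 15.9 to 16.3 CPM in the kdm4aa knockout, and 17.5, 20.5 and 16.5 CPM in the kdm4ab knockout. The flavoprotein SDHA itself stood at 80.4 to 87.8 CPM in wild type, against 91.7 to 102 CPM, a difference of 0.19 that did not pass in 8 libraries (adjusted p = 0.0678). SDHC (ENSDARG00000038608), a membrane anchor of the complex, stood at 9.40, 9.52 and 8.31 CPM, against 8.05, 9.95 and 9.45 CPM, and overlapped, while the kdm4ab knockout had 7.10, 34.9 and 7.52 CPM.

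Complex III had 1 gene that rose and 1 that fell among 7 tested in 8 libraries, 14.3% each way, below the shares of all genes. In 9 libraries it had none, and 1 had a higher and 0 a lower value at an unadjusted p under 0.05. The core subunit copy uqcrc2a (ENSDARG00000014794) stood at 13.8, 12.5 and 10.9 CPM against 18.0, 20.7 and 16.2 CPM (0.56 in 8 libraries, adjusted p = 0.00300). Its copy UQCRC2 (ENSDARG00000071691) stood at 82.1 to 93.2 CPM against 82.3 to 91.7 CPM and overlapped. UQCRFS1 (ENSDARG00000007745), the Rieske iron-sulphur protein, stood at 89.9 to 91.3 CPM in wild type, against 73.7, 83.0 and 77.7 CPM, and fell by 0.21 in 8 libraries (adjusted p = 0.0365, against 0.867 in 9). How reads were assigned between such copies is not stated, so the split between them is uncertain.

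In complex IV, which reduces oxygen, 7 of 17 genes rose and 1 fell in 8 libraries, 41.2% and 5.88%, with a median of 0.34. In 9 libraries none of 15 was called, and none had an unadjusted p under 0.05. The subunit 5A genes moved together. COX5A (ENSDARG00000099663) stood at 19.0, 18.0 and 19.6 CPM in wild type, against 33.9, 37.1 and 34.7 CPM (0.90 in 8 libraries, adjusted p = 1.18e-06), and cox5aa (ENSDARG00000088383) at 35.6, 40.7 and 39.8 CPM against 63.9, 64.8 and 59.1 CPM (0.70, adjusted p = 8.48e-06). NDUFA4 (ENSDARG00000099499), named for complex I but now placed in complex IV, stood at 145, 142 and 148 CPM against 243, 193 and 205 CPM (0.56, adjusted p = 4.74e-05). The groups did not overlap for any of the 3, and in 9 libraries their adjusted p-values ran from 0.395 to 0.658. The other way, cox6a1 (ENSDARG00000022438) stood at 11.7, 13.7 and 11.8 CPM against 8.02, 8.21 and 9.01 CPM, and fell by 0.56 in 8 libraries (adjusted p = 0.00319, against 0.453 in 9). Genes that mark particular tissues or conditions in mammals were near 0: COX4I2 was at most 0.536 CPM outside kdm4ab knockout replicate 2, where it stood at 3.46 CPM, cox7a1 at most 0.319 CPM and cox8b at most 0.444 CPM. The widely used forms COX4I1 (ENSDARG00000032970) and cox8a (ENSDARG00000095273) stood at 34.8 to 37.1 and 3.26 to 4.71 CPM in wild type. In the kdm4aa knockout they stood at 38.9 to 44.3 CPM, short of the threshold in 8 libraries (0.20, adjusted p = 0.112), and at 4.93 to 7.61 CPM (0.60, adjusted p = 0.0264).

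**Figure D3:**
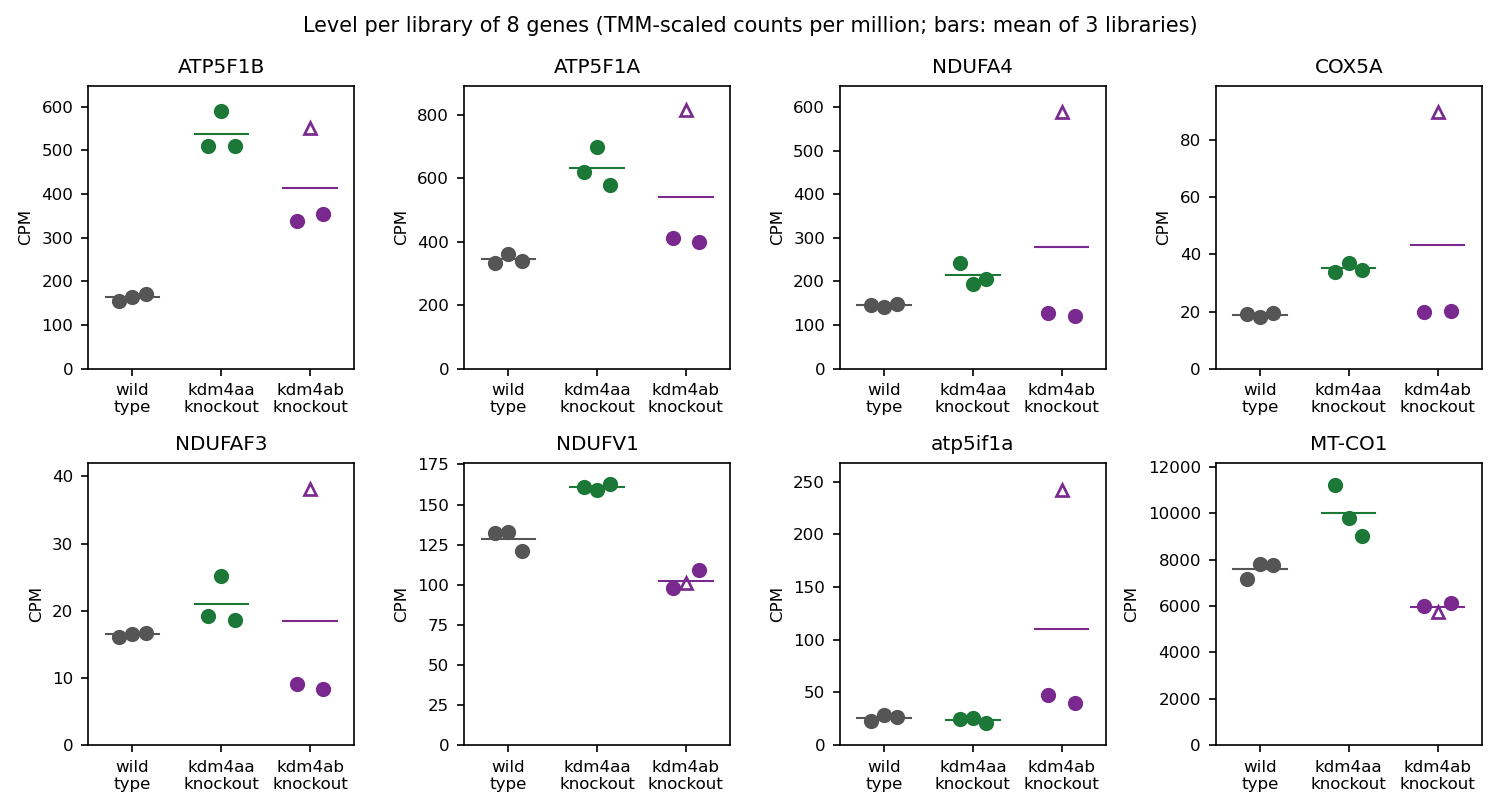
Level of 8 genes in each library (vertical axes, CPM after TMM scaling), by genotype. Points are libraries, bars are means of 3 and the open triangle is kdm4ab knockout replicate 2. ATP5F1B separates the kdm4aa knockout (511 to 589 CPM) from wild type (155 to 170 CPM), while for NDUFAF3 and NDUFA4 replicate 2 lies opposite to the other kdm4ab knockout libraries relative to wild type.

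All 13 genes of the mitochondrial genome had a positive difference in the kdm4aa knockout, from 0.09 to 0.44 in 9 libraries, where none passed the threshold and 2 had an unadjusted p under 0.05. In 8 libraries 8 of them rose, 61.5%, against 23.3% of all genes. In 9 of the 13, 69.2%, all kdm4aa libraries lay above all wild type libraries, against 28.7% of all genes tested in 9 libraries. The 13 genes are read from long shared precursor transcripts, so they are not independent of each other. MT-CO1 (ENSDARG00000063905), the catalytic subunit of complex IV, stood at 7148, 7828 and 7747 CPM in wild type, at 11223, 9798 and 9023 CPM in the kdm4aa knockout, and at 6013, 5755 and 6144 CPM in the kdm4ab knockout. The 3 groups did not overlap. Against wild type the kdm4aa knockout differed by 0.41 in 8 libraries (adjusted p = 0.000307) and 0.40 in 9 (adjusted p = 0.129). MT-CYB (ENSDARG00000063924), cytochrome b of complex III, stood at 2228, 2507 and 2542 CPM in wild type, against 3743, 3070 and 3061 CPM, 0.44 in 8 libraries (adjusted p = 0.000301, against 0.116 in 9). The difference for MT-ATP6 (ENSDARG00000063911), the proton channel subunit of complex V, was also 0.44, with 1598, 1560 and 1561 CPM against 2514, 1929 and 1951 CPM (adjusted p = 0.00114 in 8 libraries). MT-ND1, MT-ND4, MT-ND6, MT-CO2 and MT-CO3 also rose in 8 libraries, by 0.28 to 0.40. The others, MT-ND2, MT-ND3, MT-ND5, mt-nd4l and mt-atp8, were 0.10 to 0.22 higher and did not pass. In vertebrate mitochondrial DNA mt-atp8 overlaps MT-ATP6 and mt-nd4l overlaps MT-ND4, so the split of reads within each pair is uncertain.

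**Figure D4:**
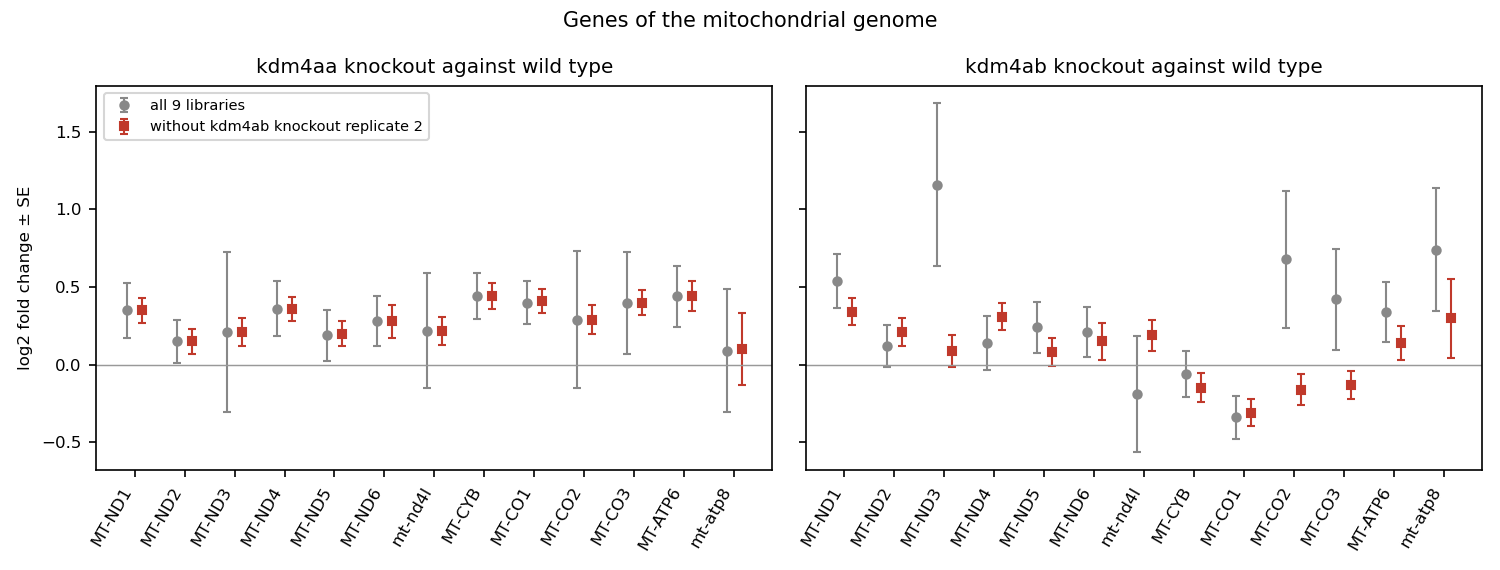
Log2 fold change with its standard error for each gene of the mitochondrial genome, in the kdm4aa knockout and the kdm4ab knockout against wild type. Grey circles use 9 libraries and red squares 8. All values in the kdm4aa knockout are above 0, and MT-CO2 in the kdm4ab knockout goes from 0.68 to -0.16 without replicate 2.

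Genes that surround the complexes were counted from lists of other genes. Assembly factors whose names lie outside the rule had 4 that rose and 0 that fell among 39 tested in 9 libraries, and 14 and 2 in 8, with a median of 0.26 in 9. At an unadjusted p under 0.05, 5 had higher and 2 lower values in 9 libraries. The largest was taco1 (ENSDARG00000062943), a translation activator of MT-CO1, at 0.407, 0.207 and 0.0886 CPM in wild type, at 7.18, 4.85 and 6.02 CPM in the kdm4aa knockout, and at 20.1, 40.7 and 18.1 CPM in the kdm4ab knockout. It was low in wild type and higher in both knockouts without overlap, by 4.68 (SE 0.573, adjusted p = 0.00225) in the kdm4aa knockout. The respiratory complex factor higd1a (0.78, adjusted p = 0.0250), the ATP synthase assembly factor TMEM70 (0.90, adjusted p = 0.0281) and the complex III factor UQCC1 (0.62, adjusted p = 0.0324) also rose in 9 libraries. Among cytochrome c and other electron carriers 2 rose and 1 fell of 9 in 8 libraries and none in 9. Cytochrome c itself, cycsb (ENSDARG00000044562), stood at 67.4, 66.9 and 69.1 CPM against 131, 133 and 129 CPM (0.95, adjusted p = 3.52e-08 in 8 libraries, 0.155 in 9). Genes of the tricarboxylic acid cycle, which feeds the chain with NADH and succinate, had 5 that rose and 1 that fell of 18 in 8 libraries, 27.8% and 5.56%, with a median of 0.09, and none in 9. The share that rose was near that of all genes. Glycolysis genes had 15 that rose and 4 that fell of 22 in 8 libraries, with a median of 0.46, and 2 and 0 of 21 in 9. Genes of mitochondrial import and cristae had 16 and 3 of 29 in 8 libraries, with a median of 0.34, and 3 and 1 in 9.

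Of 22 genes that copy and transcribe mitochondrial DNA or mature its RNA, 1 rose and 2 fell in the kdm4aa knockout in 9 libraries, and 5 and 6 in 8. Those are 4.55% and 9.09%, and 22.7% and 27.3%, so that the list in 8 libraries stood near the background of all genes. The gene that rose was mterf3 (ENSDARG00000003207), a regulator of mitochondrial transcription and ribosome assembly, at 3.57, 4.66 and 3.83 CPM in wild type, against 17.9, 18.1 and 17.1 CPM in the kdm4aa knockout and 4.96, 10.6 and 4.53 CPM in the kdm4ab knockout. It differed from wild type by 2.14 (SE 0.352, adjusted p = 0.00820) in the kdm4aa knockout and by 0.73 (adjusted p = 0.176) in the kdm4ab knockout. MGME1 (ENSDARG00000016656), a nuclease of mitochondrial DNA maintenance, fell by 1.07 (adjusted p = 0.0382), and FASTKD3 (ENSDARG00000100440), which acts on mitochondrial RNA, by 0.80 (adjusted p = 0.0159). Of 15 nuclear regulators of mitochondrial biogenesis none rose or fell in the kdm4aa knockout in 9 libraries, where 1 had a higher and 1 a lower value at an unadjusted p under 0.05, and 4 rose and 2 fell in 8. NRF1 (ENSDARG00000000018), a transcription factor for respiratory chain genes, stood at 138, 139 and 148 CPM in wild type, against 197, 195 and 202 CPM in the kdm4aa knockout (0.48 in 8 libraries, adjusted p = 3.73e-05). In the kdm4ab knockout 1 of the 15 rose and 3 fell in 9 libraries, where 8.97% and 8.04% of all genes did, and 5 rose and 3 fell in 8, where 25.3% and 24.2% did. The coactivator gene ppargc1b (ENSDARG00000101569) stood at 15.5, 4.40 and 17.9 CPM, against 1.37 to 1.76 CPM in wild type, and rose by 2.99 (SE 0.504, adjusted p = 0.00612). GABPA (ENSDARG00000069289), the DNA-binding part of another such factor, stood there at 70.1, 69.4 and 71.6 CPM, against 113, 102 and 102 CPM, and fell by 0.59 (adjusted p = 0.0106).

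Maternal oocyte transcripts summed higher than in wild type in every library of both knockouts. Their list summed to 2792, 3095 and 2844 CPM in wild type, to 5948, 4626 and 4826 CPM in the kdm4aa knockout, and to 3435, 8959 and 3489 CPM in the kdm4ab knockout, and 7 of its 10 genes rose in the kdm4aa knockout in 8 libraries and 3 in 9, and 0 fell in either. In the kdm4ab knockout 3 of the 10 rose and 0 fell in 8 libraries, and 2 and 0 in 9. The share in 8 libraries, 30.0%, was near the 25.3% of all genes. The groups were apart there in 4 genes upward and 1 downward, against 34.1% and 33.5% over all genes. All 10 were present, from zp2.1 at 1.93 to 3.62 CPM in wild type to CCNB1 at 1055 to 1113 CPM. CCNB1 alone thus made up much of the wild type sum. The embryonic marker list summed to 386.0, 297.6 and 388.2 CPM in wild type, to 265.9, 309.7 and 290.6 CPM in the kdm4aa knockout, and to 109.2, 98.30 and 123.0 CPM in the kdm4ab knockout, of which krt4, an epidermal keratin, made up 154 to 198 CPM in wild type. The wild type and kdm4aa sums overlapped, and the kdm4ab sums lay below both. Of its 7 tested genes 2 rose and 2 fell in the kdm4aa knockout in 8 libraries and 0 and 1 in 9, and 5 of the 7 had positive values in 9 (median 0.44), whereas krt4 fell to 79.9, 94.7 and 87.2 CPM (-1.07, adjusted p = 0.0321). The skeletal muscle list summed to 5.09, 4.97 and 6.52 CPM in wild type, to 10.3, 10.4 and 8.55 CPM in the kdm4aa knockout and to 4.92, 0.672 and 4.50 CPM in the kdm4ab knockout, higher without overlap in the kdm4aa knockout. Of its genes TNNT3 (ENSDARG00000030270), a troponin of fast muscle, stood at 0.790, 0.880 and 1.51 CPM in wild type, against 4.58, 4.34 and 4.20 CPM in that knockout, and 1 of 9 tested genes rose in 8 libraries and 0 of 8 in 9. The yolk syncytial layer list summed to 91.38 to 132.0, 87.84 to 138.0 and 56.73 to 70.43 CPM in wild type and the kdm4aa and kdm4ab knockouts. In 8 libraries 42.9% of its tested genes rose and 0% fell in the kdm4aa knockout, and 0% did either in 9. In the kdm4ab knockout 0% rose and 57.1% fell in 8 libraries, and 0% and 50.0% in 9. Of the embryonic list 14.3% rose and 57.1% fell there in 8, and 14.3% and 28.6% in 9. Over all genes 24.2% fell in the kdm4ab knockout in 8 libraries and 8.04% in 9, and 23.3% rose in the kdm4aa knockout in 8. The part of stage, of egg RNA and of muscle in the oxidative phosphorylation values was not tested.

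Against wild type, the kdm4ab knockout gave another result with replicate 2 than without it. In 9 libraries 6 oxidative phosphorylation genes rose and 0 fell of 108, 5.56%, where over all genes 8.97% rose and 8.04% fell. At an unadjusted p under 0.05, 23 were higher and 2 lower, 21.3% and 1.85%, against 16.9% and 15.3% over all genes. DESeq2 called 13 higher and 2 lower, with 13.7% and 15.3% of all genes, and limma-voom 16 and 14, with 27.0% and 25.8%. The groups were apart in 24 genes upward and 3 downward, against 17.9% and 25.9% over all genes. In 8 libraries 16 of 110 rose and 17 fell, 14.5% and 15.5%, below the 25.3% and 24.2% over all genes, and the groups were apart in 29 upward and 32 downward, against 34.1% and 33.5%. The median over nuclear genes was 0.78 in 9 libraries and -0.08 in 8, and over mitochondrial genes 0.24 and 0.14, while over all genes it was -0.03 and 0.01. All 5 complexes shared the shift: their nuclear medians went from 0.79 to -0.12 for complex I, 0.70 to -0.00 for II, 0.51 to -0.03 for III, 0.94 to -0.04 for IV and 0.80 to -0.09 for V. With replicate 2 left out, 5 genes rose and 7 fell in complex I, 3 and 2 in II, 0 and 0 in III, 1 and 2 in IV, and 5 and 5 in V. For complex III in 8 libraries 0 had higher and 2 had lower values at an unadjusted p under 0.05, against 28.0% and 27.2% over all genes. There UQCRH (ENSDARG00000059128), the hinge protein, was lowest, at 34.0, 91.3 and 22.7 CPM against 35.7, 35.8 and 36.6 CPM in wild type (-0.34, adjusted p = 0.0576 in 8 libraries).

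In 9 libraries 6 genes rose in the kdm4ab knockout, and all 6 also rose in 8. ATP5F1B rose by 1.35 (SE 0.197, adjusted p = 0.00326) and by 1.09 in 8 libraries. Its partner ATP5F1A stood at 410, 816 and 399 CPM, above wild type in every library (0.65, adjusted p = 0.131, and 0.23, adjusted p = 0.0346 in 8 libraries). NDUFAF5 (ENSDARG00000061629), which modifies the core subunit NDUFS7, stood at 4.92, 5.90 and 7.0 CPM in wild type and 12.2, 17.2 and 9.69 CPM in the kdm4ab knockout (1.13, adjusted p = 0.0241). SDHAF2 rose by 0.75 (adjusted p = 0.0194), NDUFS5 by 2.1 (adjusted p = 0.0459, 0.93 in 8 libraries) and sdhaf1 by 2.03 (adjusted p = 0.0455, 0.96 in 8 libraries). The last was a second SDHD gene (ENSDARG00000055712), a membrane anchor of complex II, at 0, 0 and 0.0886 CPM in wild type and 0.565, 2.49 and 1.07 CPM in the kdm4ab knockout, levels so low that its fitted value of 5.33 depends on the prior count. The main SDHD gene (ENSDARG00000030139) stood at 42.7 to 51.1 CPM in wild type and 49.0, 133 and 44.3 CPM in the kdm4ab knockout, which overlapped.

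Without replicate 2, 7 of 44 nuclear genes of complex I fell in the kdm4ab knockout and 5 rose, 15.9% and 11.4%, both below the shares of all genes. NDUFAF3 (ENSDARG00000112931), an assembly factor that works with NDUFAF4, stood at 16.1, 16.6 and 16.7 CPM in wild type and at 9.03, 38.2 and 8.28 CPM in the kdm4ab knockout. Its difference was 0.17 (adjusted p = 0.860) in 9 libraries and -0.92 (adjusted p = 8.38e-05) in 8. NDUFS6 (ENSDARG00000056583), a zinc-binding accessory subunit, stood at 1.94, 3.31 and 2.84 CPM against 0.524, 3.66 and 0.584 CPM, a difference of -2.28 in 8 libraries (adjusted p = 5.52e-05) and -0.77 in 9 (adjusted p = 0.511). In both genes replicates 1 and 3 lay below wild type and replicate 2 above it. NDUFV1 is different, since all 3 kdm4ab libraries, at 97.8, 101 and 109 CPM, lay below wild type (-0.31, adjusted p = 0.00733 in 8 libraries, and 0.0808 in 9). NDUFA9 (ENSDARG00000070723), at 87.6, 81.2 and 78.3 CPM against 55.3, 137 and 58.9 CPM, NDUFB6 and ndufv3 fell by 0.52, 0.65 and 0.45 in 8 libraries, with adjusted p-values of 0.000163, 0.00253 and 0.00444. Complex V had 25.0% each way in 8 libraries, near the 25.3% higher and 24.2% lower of all genes. In the ATP synthase stalk 3 of 4 genes, ATP5PB, ATP5PO and ATP5PD, fell by 0.34, 0.45 and 0.73 and ATP5PF rose by 0.68. The 3 that fell stood at 59.2, 52.3 and 7.40 CPM in replicate 2, above every wild type library. Complex IV had cox7b (ENSDARG00000115557) at 3.26, 3.73 and 3.79 CPM against 2.14, 11.5 and 1.85 CPM (-0.84, adjusted p = 0.00892 in 8 libraries) and cox6a1 lower, and COX7A2 (ENSDARG00000053217) higher, at 3.36, 4.24 and 3.30 CPM against 7.42, 20.1 and 4.70 CPM (0.74, adjusted p = 0.0132).

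The inhibitor of ATP synthase was higher in all kdm4ab knockout libraries. The gene atp5if1a (ENSDARG00000067975), whose product blocks the enzyme from splitting ATP, stood at 23.0, 28.9 and 26.3 CPM in wild type, at 25.0, 25.2 and 20.6 CPM in the kdm4aa knockout, and at 47.5, 242 and 39.7 CPM in the kdm4ab knockout. The kdm4ab libraries did not overlap the others. Against wild type it differed by 2.07 (SE 0.630, adjusted p = 0.0559) in 9 libraries and by 0.75 (SE 0.130, adjusted p = 0.000151) in 8. The second copy, atp5if1b (ENSDARG00000044092), stood at 5.28 to 6.37 CPM in wild type and 6.41, 18.4 and 4.11 CPM in the kdm4ab knockout and did not pass (-0.11, adjusted p = 0.706 in 8 libraries).

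Among mitochondrial genes the kdm4ab knockout shifted the balance within the genome. MT-CO1 took 36.8% to 37.7% of the counts of the 13 genes in wild type, 37.2% to 39.0% in the kdm4aa knockout, and 30.3%, 20.5% and 33.8% in the kdm4ab knockout. MT-ND1 (ENSDARG00000063895), a membrane core subunit of complex I, took 3.40% to 3.58% in wild type, 3.33% to 3.62% in the kdm4aa knockout and 4.52% to 4.89% in the kdm4ab knockout. In both genes the kdm4ab libraries stood apart from the other 2 groups. Against wild type in 8 libraries MT-CO1 fell by 0.31 (adjusted p = 0.00601, against 0.130 in 9). There MT-ND1 and MT-ND4 (ENSDARG00000063917) rose by 0.34 (adjusted p = 0.00378) and 0.31 (adjusted p = 0.00605). The rise of MT-ND4 was not shared by replicate 2. Its levels were 1325, 854 and 1215 CPM, against 985, 1048 and 1045 CPM in wild type, and its difference in 9 libraries was 0.14. Its share of the mitochondrial counts was 6.67%, 3.05% and 6.68%, against 5.01% to 5.07% in wild type. MT-CO2 (ENSDARG00000063908) and MT-CO3 (ENSDARG00000063912), the other complex IV genes, stood at 2064 and 2328 CPM in kdm4ab knockout replicate 1 and 1593 and 2042 CPM in replicate 3, but at 6148 and 5260 CPM in replicate 2. In wild type they were at most 2118 and 2492 CPM, so the direction of both turned with that library.

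Replicate 2 of the kdm4ab knockout differed from its group in nuclear oxidative phosphorylation genes far more than in mitochondrial ones. Relative to the mean of replicates 1 and 3, the median nuclear gene was 3.49 times as high (0.0612 to 13.4), the median mitochondrial gene 1.37 times (0.314 to 4.30) and the median of all genes tested 0.636 times. It lay above all 8 other libraries in 84 of 95 nuclear genes, 88.4%, and in 6 of 13 mitochondrial genes, against 26.4% of all genes tested. It lay below all of them in 5 nuclear and 4 mitochondrial genes, against 46.4% of all genes. For complex IV the count above was 15 of 15, with a median of 4.27 times. Between 5 and 1000 CPM in the other kdm4ab libraries, where low counts matter less, 61 of 69 nuclear genes lay above all others with a median of 3.42 times, and 29.7% of all genes in that range with a median of 0.809 times. The exceptions include NDUFAF1, an assembly factor at 2.62 CPM where the other libraries had 4.59 to 9.89 CPM, NDUFAF7, at 2.25 CPM against 6.57 to 11.4 CPM, and SDHA, at 62.8 CPM against 80.4 to 102 CPM. What sets that library apart was not tested.

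**Figure D5:**
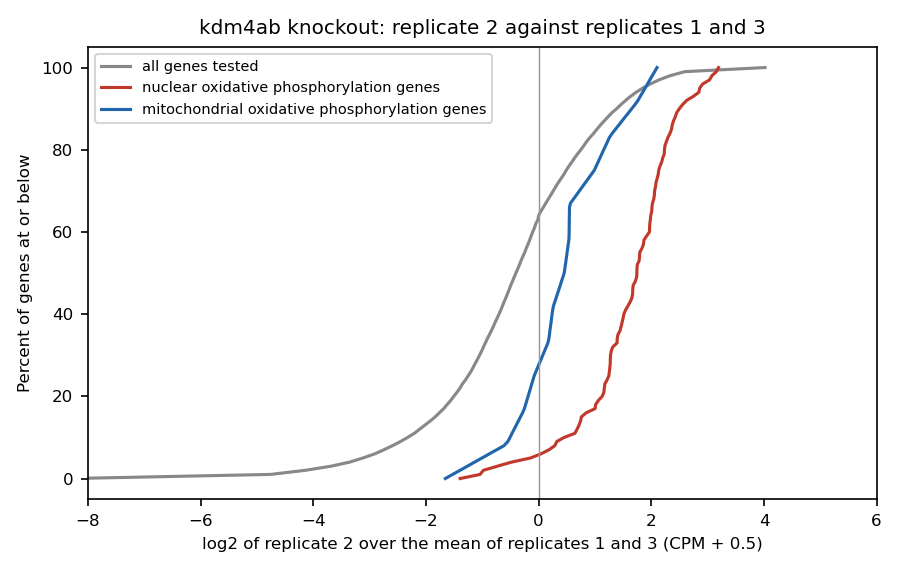
Cumulative percent of genes (vertical axis) by the log2 ratio of kdm4ab knockout replicate 2 over the mean of replicates 1 and 3, after adding 0.5 CPM to each. The curve of the 95 nuclear genes lies to the right of that of the 13 mitochondrial genes and of all 18998 genes tested.

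Between the knockouts, replicate 2 turned the direction of the nuclear genes. In 9 libraries 3 genes were higher in the kdm4aa knockout and 1 lower, 2.78% and 0.926% of 108, where over all genes 8.81% were higher and 9.39% lower. DESeq2 called 4 higher and 3 lower, with 14.9% and 14.7% of all genes, and limma-voom 37 and 3, with 26.1% and 27.1%. In 8 libraries 41 of 110 were higher and 3 lower, 37.3% and 2.73%, against 26.0% and 26.8% over all genes. The groups were apart in 7 genes each way in 9 libraries, against 23.6% and 16.8% over all genes, and in 55 upward and 9 downward in 8, 50.0% and 8.18%, against 33.0% and 34.7%. The median of the nuclear genes was -0.52 in 9 libraries and 0.28 in 8, and that of the mitochondrial genes 0.03 and 0.12. Over all genes it was 0.01 and -0.01. By complex in 8 libraries, 15 of 44 were higher and 0 lower in complex I, 1 and 1 of 9 in II, 3 and 0 of 7 in III, 8 and 1 of 17 in IV, and 9 and 1 of 20 in V.

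The 4 genes called in 9 libraries were also called in 8 and did not rest on replicate 2. MT-CO1 was 0.75 higher in the kdm4aa knockout than in the kdm4ab knockout (SE 0.141, adjusted p = 0.00899) and 0.72 higher in 8 libraries. NDUFV1, with the levels given above, was 0.64 higher (SE 0.111, adjusted p = 0.00603), and MT-CYB, at 2214, 2603 and 2149 CPM in the kdm4ab knockout, 0.50 higher (SE 0.148, adjusted p = 0.0473). All kdm4aa libraries lay above all kdm4ab libraries in these 3. The inhibitor gene atp5if1a was lower in the kdm4aa knockout by 2.21 (SE 0.633, adjusted p = 0.0436), and by 0.89 in 8 libraries (adjusted p = 2.33e-05).

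Without replicate 2 the smallest p-values belonged to genes of several complexes. The small ATP synthase gene atp5mj stood at 22.9, 160 and 20.6 CPM in the kdm4ab knockout and was 1.14 higher in the kdm4aa knockout (adjusted p = 4.54e-07), against -0.50 (adjusted p = 0.673) in 9 libraries. NDUFAF3 was 1.28 higher (adjusted p = 2.39e-06), ATP5F1C, at 33.2, 93.4 and 32.8 CPM in the kdm4ab knockout, 0.86 higher (adjusted p = 2.63e-06), and NDUFA4, at 127, 588 and 121 CPM there, 0.78 higher (adjusted p = 4.63e-06). In all 4, replicates 1 and 3 lay below every kdm4aa library and replicate 2 above all of them. For ATP5F1B the knockouts differed by 0.63 in 8 libraries (adjusted p = 1.16e-05) and by 0.37 in 9 (adjusted p = 0.228). Lower in the kdm4aa knockout in 8 libraries were atp5if1a, the second SDHD gene, by 3.27 (adjusted p = 0.00994), and COX7A2 (ENSDARG00000053217), by 0.75 (adjusted p = 0.0122). COX7A2 (ENSDARG00000110700), the other gene of that name, stood at 17.0, 18.2 and 16.7 CPM in the kdm4aa knockout and 15.1, 101 and 17.9 CPM in the kdm4ab knockout, and did not pass (0.07, adjusted p = 0.694). The 3 comparisons share libraries pairwise, so their values are not independent of each other.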

How the data were processed

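RNA from zebrafish embryos was measured in 9 libraries. The authors deposited 1 table of whole-number counts per Ensembl gene and library, not normalized. The submitters' processing notes name GRCz11 and danRer11, while the aligner, counting tool, annotation release and strand setting were not given in these notes or the labels. A name table matched 29201 of 32520 identifiers, and 3319 had no symbol. All columns matched a sample by its description, and 0 were left unused.

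In edgeR 4.0.16 (R 4.3.3), counts were filtered with filterByExpr, TMM scaling was applied and groups were compared by the quasi-likelihood F-test, two-sided, with 1 mean per group and a shared spread. The Benjamini-Hochberg adjustment ran across every gene that passed the filter (18998 in 9 libraries, 19882 in 8) and calls were made under 0.05. Every adjusted p in the text is from this test unless another tool is named. CPM were computed here from TMM-scaled totals. Fold changes are log2, and each SE is the absolute log2 value over the square root of F, which is approximate. Shares are raw counts over library totals, with no test.

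Alternatives were DESeq2 1.42.0, limma 3.58.1 with voom and sample quality weights, other scalings, no filter, a replicate block, subsets of libraries and each library left out. The code was tested on simulated data. The text names kdm4aa, kdm4ab, the 13 mitochondrial genes, called members with the smallest p (up to 5 per direction, comparison and fit), the highest and lowest of each complex at 5 CPM or more, duplicated genes and tissue isoforms, and up to 4 genes of each other list. The remaining genes named were chosen after their values were seen. Members and lists were chosen with earlier results of these data known. The functions of genes are background. A second annotation, on another assembly, supplied no coordinates.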

Additional observations from a re-analysis of the deposited data

How the results depend on the processing

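Of 228 values of the 18 main results under alternatives, 165 were scored as the same. A count was scored so when close to the main count. A median or share was scored so when it moved by less than the spread between replicates. That spread includes kdm4ab knockout replicate 2 where its group is compared, and direction was not checked within it. The count of genes higher in the kdm4aa knockout than in wild type, 2, was 1 with no filter on low counts, 7 with DESeq2, 46 with limma-voom weights and 44 with only the 6 libraries compared. The count lower, 0, was 7 with limma-voom and 6 with those 6 libraries. The limma-voom weights nearly left out kdm4ab knockout replicate 2, and those 6 libraries do not include it. The limma-voom and 6-library counts are therefore not separate from leaving it out. In the comparisons that involve the kdm4ab knockout, the 6 libraries are those of the compared groups and do include its replicate 2. For the kdm4ab knockout against wild type, 6 higher became 13 with DESeq2, 16 with limma-voom and 1 with 6 libraries, and 0 lower became 2 and 14 with the first pair of tools. Between the knockouts, 3 higher became 37 with limma-voom and 1 with 6 libraries, and 1 lower became 3 with DESeq2, 3 with limma-voom and 0 with 6 libraries.

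Leaving out 1 library at a time gave 1 to 42 higher and 0 to 5 lower in the kdm4aa knockout, 1 to 16 and 0 to 17 in the kdm4ab knockout, and 1 to 41 and 0 to 3 between them. The highest of each came without kdm4ab knockout replicate 2. The nuclear median ran from -0.08 to 1.09 in the kdm4ab knockout and from -0.83 to 0.28 between the knockouts, and the mitochondrial median in the kdm4ab knockout from 0.14 to 0.34. By complex the kdm4ab medians ran from -0.12 to 1.09 (I), -0.03 to 0.94 (III), -0.04 to 1.24 (IV) and -0.09 to 1.09 (V), and those between knockouts from -0.75 to 0.32 (II), -0.95 to 0.12 (III), -0.80 to 0.29 (IV) and -0.88 to 0.38 (V).

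The main fit did not pair the samples by replicate number. Deviations of same-numbered libraries from their group means correlated at -0.0443 to 0.0697. In the kdm4ab knockout, replicate 2 weighs heavily on these deviations. Whether same-numbered libraries share a clutch or batch is not known. With the replicate block, 1 gene was called higher in the kdm4aa knockout, 1 in the kdm4ab knockout, and 0 lower between the knockouts. With the replicate block and without kdm4ab knockout replicate 2, 43 were higher and 4 lower in the kdm4aa knockout, 17 and 15 in the kdm4ab knockout, and 39 and 3 between them.

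Medians that turned by more than the spread between replicates did so with limma-voom weights, with the replicate block in 8 libraries, or without kdm4ab knockout replicate 2. In the kdm4ab knockout against wild type, limma-voom gave -0.04 for nuclear genes, -0.02, -0.01, -0.01, -0.05 and -0.05 for complexes I to V and 0.16 for mitochondrial genes. The replicate block in 8 libraries gave -0.04 for nuclear genes, -0.01, -0.01, -0.04 and -0.11 for complexes I, III, IV and V and 0.09 for mitochondrial genes. Between the knockouts limma-voom gave 0.25 for nuclear genes and 0.30, 0.07, 0.30 and 0.34 for complexes II to V, and the replicate block in 8 libraries gave 0.28, with 0.27, 0.27, 0.19, 0.27 and 0.37 for complexes I to V.

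A further 125 results were single genes, counted once per comparison, and medians by complex. Of their 2144 values under alternatives 97 changed sign, 68 of them under those 3 settings. A median was counted only where it moved by more than the spread between replicates. In the kdm4ab knockout, limma-voom and the replicate block in 8 libraries gave -0.91 and -0.85 for NDUFAF3, -0.51 and -0.53 for NDUFA9, -0.27 and -0.26 for SDHC, -0.32 and -0.32 for UQCRH, -0.83 and -0.90 for cox7b, -0.56 and -0.52 for atp5mea, 0.16 and 0.17 for mt-nd4l, -0.14 and -0.18 for MT-CO2, and -0.13 and -0.15 for MT-CO3. Between the knockouts they gave 1.12 and 1.14 for atp5mj, 0.77 and 0.82 for NDUFA4, 0.53 and 0.59 for sdhaf1, 0.42 and 0.46 for MT-CO2, and 0.51 and 0.54 for MT-CO3. The replicate block in 9 libraries turned NDUFAF3 to -0.15 and NDUFA9 to -0.07 in the kdm4ab knockout, atp5mj from -0.50 to 0.02 and MT-CO3 to 0.07 between the knockouts, and SDHC to -0.00 in the kdm4aa knockout. DESeq2 and its size factors in edgeR gave -0.02 for SDHC in the kdm4aa knockout and -0.00 for NDUFA9 in the kdm4ab knockout, and no filter -0.00 for NDUFA9 and 0.00 for MT-CO3 between the knockouts.

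Leaving out 1 library, the kdm4aa knockout ran from -0.06 to 0.10 for SDHC and -0.14 to 0.25 for mt-atp8. The kdm4ab knockout ran from -0.92 to 0.49 for NDUFAF3, -0.52 to 0.23 for NDUFA9, -0.65 to 0.19 for NDUFB6, -0.45 to 0.15 for ndufv3, -0.31 to 1.20 for SDHC, -0.34 to 0.77 for UQCRH, -0.84 to 0.89 for cox7b, -0.56 to 0.76 for atp5mea, -0.00 to 0.31 for MT-ND4, -0.48 to 0.19 for mt-nd4l, -0.16 to 0.98 for MT-CO2 and -0.13 to 0.63 for MT-CO3. The difference between the knockouts ran from -0.90 to 1.14 for atp5mj, -0.14 to 1.28 for NDUFAF3, -0.05 to 0.86 for ATP5F1C, -0.72 to 0.78 for NDUFA4, -0.89 to 0.51 for sdhaf1, -0.69 to 0.45 for MT-CO2, -0.24 to 0.53 for MT-CO3 and -0.03 to 0.30 for MT-ATP6. What makes these values turn was not tested. Low counts limit genes under about 5 CPM, such as the second SDHD gene.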
